A study of Mus musculus with 4 samples.

Results

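SINE peaks are open-chromatin sites whose listed repeat is a short interspersed element. They were the rows of the deposited consensus peak table whose detailed annotation carries the class SINE, and 519 of 23595 peaks met this rule. The annotation alone chose them, and no measured signal entered the choice. Accessibility had been measured by ATAC-seq, in which the Tn5 transposase places sequencing adapters into open chromatin. The KO group held 2 libraries of Morrbid deficient neutrophils on a C57BL6 background, and the WT group held 2 libraries of C57BL6 neutrophils. Cells came from bone marrow by flow sorting and were not cultured, and 50000 cells of each genotype went into transposition. The labels give neither the allele that removes Morrbid, a long non-coding RNA gene, nor separate animals behind the duplicates, so p-values reflect the spread among these 4 libraries alone, and that spread may be technical. Values are the deposited normalised signal. A log2 fold change divides KO by WT after 1 was added to each signal. A peak was called when its adjusted p was below 0.05 in limma, with Benjamini-Hochberg adjustment over all 23595 peaks.

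SINEs are short retrotransposons that RNA polymerase III transcribes and that copy themselves with enzymes borrowed from LINE elements. Mouse B1 elements, listed here under the family Alu, derive from the 7SL RNA of the signal recognition particle, while B2 and ID elements derive from tRNA-like genes and B4 elements join parts of ID and B1. MIR elements are ancient and shared among mammals, and their copies have diverged far from each other. B1 and B2 copies of recently active subfamilies remain nearly alike, so reads from them are hard to place. B2 elements are known in mouse for having spread binding sites of the insulator protein CTCF.

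The 519 peaks comprised 134 of the family Alu, 131 of MIR, 127 of B2, 111 of B4 and 13 of ID, and 3 peaks of AmnSINE1 that the table lists under the family name SINE. They fell into 33 subfamilies, of which B3 (74 peaks), MIRb (51), MIR (47) and ID_B1 (40) were the most frequent. Introns held 51.4% of them (267 peaks) and intergenic sequence the other 252. Only 12 lay within 1000 bp of a transcription start site (TSS), all of them intronic, and 52 lay more than 100 kb away. No SINE peak was listed in another part of a gene, such as a promoter or exon. How far the labelling of gene parts before repeats sets these distances was not tested. The median distance to a TSS was 21216 bp, against 7283 bp for all peaks, 28368 bp for the 593 LINE peaks and 32553.5 bp for the 1102 LTR peaks. The nearest gene named below is the one the table assigns and need not be a target of the peak. The repeat is likewise 1 label for a whole peak, and the bounds of the element were not used. With a median span of 448 bp, the signal of a peak can include sequence outside its element. A peak said to lie in an element is one with that label.

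No mm9 genome was used here, so the elements themselves are not printed. No SINE peak was centred in the window from 250 bp before to 50 bp after a TSS. Of the 5 SINE peaks whose span crossed the listed TSS, 3 covered at least 200 bases of that window, by the deposited distances. The promoters of these 3 genes are shown because they are the promoter sequence that lies under SINE peaks. Each is the RefSeq entry of GRCm38.p6, 5′ to 3′ on the gene's strand, at chr7:16259289-16259588 (minus) for C5ar1, chr6:123289822-123290121 (minus) for Clec4e and chr8:72189418-72189717 (plus) for Hsh2d. Capitals mark the letters GAGGAA, the core recognised by the myeloid factor PU.1, and TTGCNNAA, a form of the C/EBP motif, on either strand.
C5ar1: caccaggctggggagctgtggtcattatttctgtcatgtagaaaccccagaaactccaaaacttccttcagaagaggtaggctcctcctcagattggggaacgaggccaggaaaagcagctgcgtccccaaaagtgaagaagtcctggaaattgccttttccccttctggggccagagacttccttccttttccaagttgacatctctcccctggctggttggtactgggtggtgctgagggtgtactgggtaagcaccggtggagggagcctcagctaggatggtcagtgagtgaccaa
Clec4e: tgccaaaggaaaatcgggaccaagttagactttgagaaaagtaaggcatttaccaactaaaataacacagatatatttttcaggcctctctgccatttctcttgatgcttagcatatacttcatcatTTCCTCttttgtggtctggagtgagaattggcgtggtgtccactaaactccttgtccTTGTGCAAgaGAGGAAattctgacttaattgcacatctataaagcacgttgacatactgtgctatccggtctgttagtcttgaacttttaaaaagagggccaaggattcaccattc
Hsh2d: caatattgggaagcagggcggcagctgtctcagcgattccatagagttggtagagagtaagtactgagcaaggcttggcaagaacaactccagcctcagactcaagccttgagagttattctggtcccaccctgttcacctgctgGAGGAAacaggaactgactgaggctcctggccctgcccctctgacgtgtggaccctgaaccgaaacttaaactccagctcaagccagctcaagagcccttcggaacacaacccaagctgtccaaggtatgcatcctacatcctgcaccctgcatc
The Clec4e window held 2 matches of GAGGAA and 1 of TTGCNNAA, the Hsh2d window held 1 of GAGGAA, and no such letters stood in the C5ar1 window. Among 32544 distinct promoter windows of 300 bases, 28.1% held GAGGAA and 10.8% held TTGCNNAA.

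These 3 peaks differed in their response. C5ar1 encodes the complement C5a receptor, which guides neutrophils to sites of complement activation. Its peak at chr7:16842919-16844898 (mm9), listed in a PB1D7 element, had signals of 856 and 925 in KO libraries, against 693 and 650 in WT libraries. Both KO libraries lay above both WT libraries, and the peak rose (log2 fold change 0.41, SE 0.090, limma adjusted p = 0.00508), but the call was lost without KO replicate 2 (adjusted p = 0.224) and under cyclic loess (0.0646). Clec4e encodes Mincle, a receptor for mycobacterial glycolipids. Its peak, in a MIR element, had signals of 706 and 708 in KO libraries and 775 and 724 in WT libraries, a difference that did not pass (log2 fold change -0.08, SE 0.091, limma adjusted p = 0.601). Hsh2d encodes a lymphocyte adaptor with an SH2 domain. Its B4 peak had 245 and 246 in KO libraries and 233 and 255 in WT libraries, so the groups overlapped (log2 fold change 0.01, SE 0.14, limma adjusted p = 0.978).

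The deposited values give no read counts. The signal of each library moved in whole steps, with a median of 97 and 121 steps per SINE peak in KO libraries and 61 and 63 in WT libraries. Whether 1 step is 1 read was not established, so a difference in depth between the genotypes is possible but not shown. SINE peaks had a median signal of 88.9, against 123 for all peaks, 91.1 for all peaks more than 1000 bp from a TSS, 84.6 for LINE peaks and 80.7 for LTR peaks. At SINE peaks, replicates differed on the log2 scale by a median of 0.18 (KO) and 0.25 (WT), and at all peaks by 0.15 (KO) and 0.21 (WT). Among marker genes fixed for the cell type, 9 of 11 neutrophil markers had a promoter peak and Ly6g had no peak assigned. None of 7 B cell, 8 T or NK cell and 8 eosinophil or basophil markers had a promoter peak. Peaks elsewhere were assigned to 1 B cell, 3 T or NK cell and 3 eosinophil or basophil markers. Promoter peaks were present at 2 of 8 monocyte or macrophage, 2 of 6 erythroid and 4 of 6 stem or progenitor markers. Of these 17 promoter peaks, 1 was called, that of the neutrophil marker Csf3r, the G-CSF receptor gene (log2 fold change -0.79, limma adjusted p = 0.0112). Over the promoter peaks of all 8776 genes with one, 13.5% were called in either direction.

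SINE peaks as a class took the same share of the signal in both genotypes, within the spread of the WT pair. They held 1.22% and 1.23% of the summed signal in KO libraries, against 1.26% and 1.21% in WT libraries, and the groups overlapped. The mean share was 1.225% ± 0.0105 in KO and 1.234% ± 0.0330 in WT libraries (SD, n = 2 each). Among families, B2 peaks held 0.249% in each KO library, against 0.271% and 0.260% in the WT libraries. B4 peaks held 0.291% and 0.297% in KO libraries and 0.285% and 0.275% in WT libraries. ID peaks held 0.0333% and 0.0337% in KO libraries and 0.0363% and 0.0344% in WT libraries. KO libraries thus lay below both WT libraries for B2 and ID and above both for B4, while for the families Alu and MIR the groups overlapped. The ID share rests on 13 peaks, of which 7 had a positive log2 fold change (median 0.03). The strongest ID peak, with a mean signal of 432, was the 1 called ID loss, at Mcl1. How far that peak sets the ID share was not tested.

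Of the 519 SINE peaks, 26 rose, 18 fell and 475 were not called. That is 5.01% higher and 3.47% lower, where 6.08% of all peaks were called higher and 4.55% lower. Of all peaks more than 1000 bp from a TSS, where nearly all SINE peaks lay, 5.13% were called higher and 3.77% lower. The median log2 fold change was 0.01 over SINE peaks, with quartiles of -0.23 and 0.26, and -0.0019 over all peaks. For LINE peaks, 36 rose and 33 fell of 593 (median 0.07), and for LTR peaks 61 rose and 48 fell of 1102 (median 0.06). The KO libraries lay above both WT libraries at 141 SINE peaks (27.2%, against 28.0% of all peaks) and below both at 129 (24.9%, against 27.3%). For all peaks more than 1000 bp from a TSS, these shares were 27.4% and 25.3%. Gains and losses differed in size, with a median log2 fold change of 0.69 among gains and -0.90 among losses, and 4 gains and 8 losses reached 2-fold. This was not particular to SINE peaks. Over all peaks the medians were 0.49 and -0.80, and 88 gains and 289 losses reached 2-fold. They were 0.64 and -1.59 for LINE peaks (5 and 29 of 2-fold) and 0.84 and -1.28 for LTR peaks (10 and 30). Median centring gave 35 gains and 12 losses, and total scaling 20 and 21. The counts depended on single libraries, with 7 gains and 8 losses when KO replicate 1 was left out, 3 and 8 for KO replicate 2, 59 and 34 for WT replicate 1, and 37 and 27 for WT replicate 2. Without limma's mean-variance trend, 0 gains and 3 losses were called. In 10 peaks the call held when any 1 library was left out, 3 of them higher (those of Lmo1, Rrp15 and Rnf150) and 7 lower (those of Ntpcr, C130026I21Rik, Eif4enif1, 2310015B20Rik, Sema3d, Podxl and Gtf2i).

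**Figure D1:**
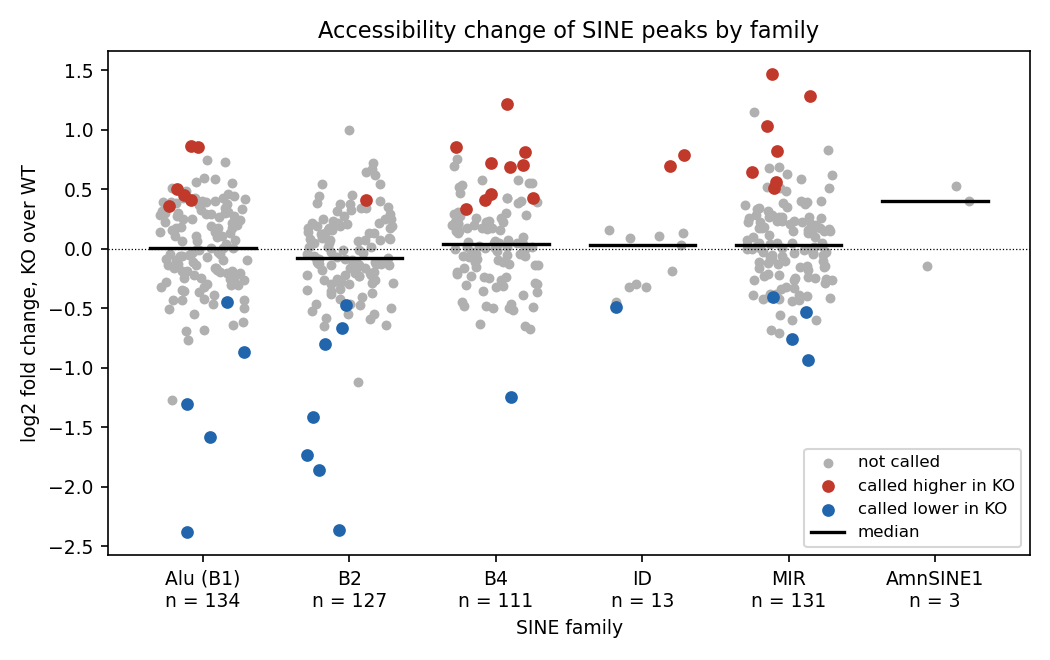
Log2 fold change of KO over WT (vertical axis) of each of the 519 SINE peaks by family, with called peaks in red (higher in KO) and blue (lower in KO), uncalled peaks in grey and the family median as a black bar. Of all peaks, 6.08% were called higher and 4.55% lower, against 0.787% and 5.51% of B2 and 9.01% and 0.901% of B4 peaks. With all 4 libraries, B2 shows 1 gain beside 7 losses and B4 shows 10 gains beside 1 loss (7 and 10, and 16 and 6, without WT replicate 1), while the medians stay between -0.08 and 0.04 in the families Alu, B2, B4, ID and MIR.

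Calls were spread unevenly over the families, although the difference between families was not tested. Of all peaks, 6.08% were called higher and 4.55% lower. Of 127 B2 peaks, 1 rose (0.787%) and 7 fell (5.51%), with a median log2 fold change of -0.08. The share of losses in B2 was thus near that of all peaks, and its share of gains was lower. Of 111 B4 peaks, 10 rose (9.01%) and 1 fell (0.901%), with a median of 0.04. Of these gains, 8 lay in B4A and B4 elements, which make up 23 and 16 peaks. In the family Alu, 6 of 134 rose (4.48%) and 5 fell (3.73%, median 0.01). Among MIR peaks 7 of 131 rose (5.34%) and 4 fell (3.05%, median 0.03). The split of B2 and B4 depended on single libraries. B2 had 7 gains and 10 losses without WT replicate 1, 6 and 9 without WT replicate 2, 1 and 4 when KO replicate 1 was left out, and 0 and 4 for KO replicate 2. B4 had 2 gains and 0 losses without either KO library, 16 and 6 without WT replicate 1, and 10 and 2 without WT replicate 2. ID peaks gave 2 gains and 1 loss among 13, all of them in ID4 elements. None of the 3 AmnSINE1 peaks was called, and the strongest of them, at 5430425K12Rik, had 167 and 191 in KO libraries and 181 and 214 in WT libraries. The called B4 gains had a median signal of 271 and the called B2 losses one of 130, and the part of peak strength in the split was not tested.

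The losses of lowest p lay in B2 and B1 elements. The peak at chr8:128302975-128303114, in a B2_Mm2 element 44941 bp from the TSS of the nucleoside triphosphatase gene Ntpcr, had 53.0 and 63.7 in KO libraries, against 213 and 213 in WT libraries. KO signal was 0.274 times that in WT (log2 fold change -1.86, SE 0.20, limma adjusted p = 3.28e-06). The B2_Mm2 peak at chr1:85295917-85296366, upstream of C130026I21Rik, had 34.4 and 24.2 in KO libraries and 148 and 157 in WT libraries (log2 fold change -2.36, SE 0.26, limma adjusted p = 3.31e-06). At the B3 peak at chr11:3099899-3100058, 2378 bp upstream of Eif4enif1, which encodes the nuclear import carrier of the cap-binding protein eIF4E, KO libraries had 71.5 and 58.9 and WT libraries 195 and 242 (log2 fold change -1.73, SE 0.20, limma adjusted p = 6.71e-06). KO libraries lay far below both WT libraries at each of these 3 sites.

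Further losses had log2 fold changes from -2.38 to -1.25. At chr10:69685113-69685231 a B1_Mm peak assigned to 2310015B20Rik had 16.8 and 20.1 in KO libraries, against 86.6 and 116 in WT libraries (log2 fold change -2.38, SE 0.31, limma adjusted p = 2.96e-05), the lowest fold change of any SINE peak. The B1_Mus2 peak upstream of the semaphorin gene Sema3d, at chr5:12355980-12356594, had 73.3 and 74.1 in KO libraries and 166 and 203 in WT libraries (log2 fold change -1.30, SE 0.20, limma adjusted p = 0.000201). The B1F1 peak upstream of Podxl, the gene of the sialomucin podocalyxin, had 50.3 and 31.9 in KO libraries and 110 and 135 in WT libraries (log2 fold change -1.58, SE 0.27, limma adjusted p = 0.000501). At the B2_Mm1a peak assigned to Gtf2i, a general transcription factor gene, KO libraries had 38.9 and 33.3. Its WT libraries stood wide apart, at 136 and 69.6 (log2 fold change -1.41, SE 0.30, limma adjusted p = 0.00347). The ID_B1 peak assigned to Zfp213, a zinc finger gene, was the only B4 loss, with 25.6 and 17.3 in KO libraries and 52.8 and 50.1 in WT libraries (log2 fold change -1.25, limma adjusted p = 0.0241), and its call was lost without either KO library (adjusted p = 0.0978 without replicate 1 and 0.377 without replicate 2).

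Of the 18 called losses, 6 lay in elements named for mouse or the genus Mus (the subfamilies B1_Mm, B1_Mus1, B1_Mus2, B2_Mm1a, B2_Mm1t and B2_Mm2). This group of 56 peaks was formed after its values were seen and carries no test. Of these peaks, 2 rose and 6 fell, against 24 and 12 of the other 463 SINE peaks, and 5 of the 6 losses held when any 1 library was left out. As shares, 3.57% of the group rose and 10.7% fell, against 5.18% and 2.59% of the other SINE peaks. Of all peaks, 6.08% were called higher and 4.55% lower. The group took 0.122% of the signal in each KO library, against 0.133% and 0.132% in the WT libraries. Copies of these subfamilies are numerous and nearly alike, and the sources used here do not give the mapping filters, so the position of their reads is uncertain.

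Narrow peaks also carried large losses. Of 27 SINE peaks with a span under 200 bp, 1 rose and 4 fell, and all 4 losses exceeded 2-fold (Ntpcr, Eif4enif1, 2310015B20Rik and Podxl). Over all 689 peaks of that span, 2.76% rose and 8.85% fell, and 47 of these 61 losses reached 2-fold. Of 63 SINE peaks of 800 bp or more, 10 rose (15.9%) and 2 fell (3.17%), close to the 12.7% and 4.48% of all 6412 peaks of that span. The median span was 647 bp among called gains and 376 bp among called losses, against 448 bp for SINE peaks in general. Gains were also wider than losses over all peaks (860 and 567 bp), LINE peaks (685 and 272 bp) and LTR peaks (458 and 358.5 bp).

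**Figure D2:**
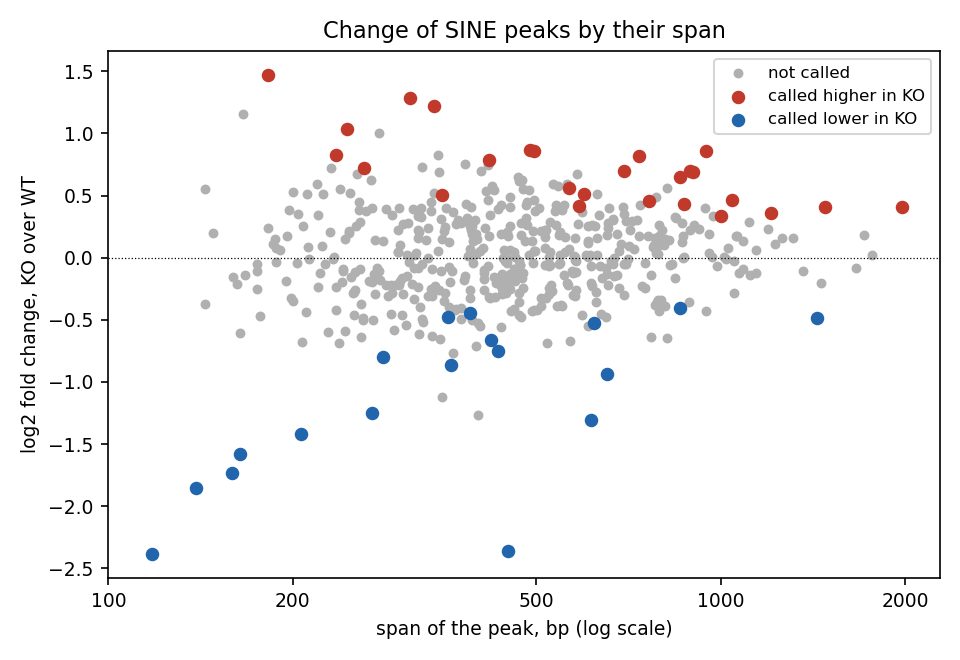
Log2 fold change of KO over WT (vertical axis) of each SINE peak against its span in bp (horizontal log axis), coloured by call. Of the 5 calls under 200 bp, 4 are losses, at log2 fold changes from -2.38 to -1.58, and 10 of the 12 calls at 800 bp or more are gains.

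Gains of lowest p lay in B4 and MIR elements. The ID_B1 peak at chr7:116329003-116329948, upstream of the LIM-domain transcription regulator gene Lmo1, had 437 and 540 in KO libraries, against 274 and 262 in WT libraries (log2 fold change 0.86, SE 0.13, limma adjusted p = 0.000145). The B4 peak in an intron, 54547 bp from the TSS of the ring finger gene Rnf150, had 296 and 289 in KO libraries and 173 and 159 in WT libraries (log2 fold change 0.81, SE 0.15, limma adjusted p = 0.00108). Both peaks had KO libraries well above both WT libraries. The MIRb peak 3082 bp upstream of Rrp15, a gene of ribosomal RNA processing, had 163 and 154 in KO libraries and 76.3 and 41.8 in WT libraries (log2 fold change 1.47, SE 0.25, limma adjusted p = 0.000489), the highest fold change of any SINE peak. At the MIRb peak in an intron assigned to the taurine transporter gene Slc6a6, KO libraries had 154 and 179 and WT libraries 88.1 and 73.8 (log2 fold change 1.03, SE 0.20, limma adjusted p = 0.00194, and 0.111 without KO replicate 2). The MIR peak assigned to Csgalnact1, an enzyme gene of chondroitin sulfate synthesis, had 98.9 and 103 in KO libraries and 44.0 and 37.6 in WT libraries (log2 fold change 1.29, limma adjusted p = 0.00236). The call at Csgalnact1 was lost without KO replicate 1 (adjusted p = 0.0618) or KO replicate 2 (0.102).

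The remaining named gains were smaller or weaker. B4A peaks assigned to Dok6, a docking protein gene, to Ccrn4l, which encodes the circadian deadenylase nocturnin, and to Met, the receptor gene of hepatocyte growth factor, had log2 fold changes of 0.70, 0.43 and 0.34. The Met peak was strong, with 954 and 1063 in KO libraries and 800 and 795 in WT libraries (limma adjusted p = 0.0128). ID4 peaks assigned to the proton pump subunit gene Atp6v0d2 and to Rabgap1l rose (log2 fold changes 0.70 and 0.79), as did a B1F peak assigned to the pseudokinase gene Trib2 (0.85) and a B1_Mm peak assigned to Cd180, which encodes a Toll-like receptor homologue (0.86). The B4 peak 334960 bp from Inhba, the activin A subunit gene, was weak, with 43.3 and 50.6 in KO libraries and 16.1 and 23.7 in WT libraries (log2 fold change 1.22, limma adjusted p = 0.0336). All of these 8 calls were lost without at least 1 KO library, and those of Ccrn4l (adjusted p = 0.0567) and Met (0.165) also under cyclic loess. Without KO replicate 1 all 8 were lost, at adjusted p from 0.0656 to 0.278, and Rabgap1l was lost without WT replicate 2 as well (0.0852). Without KO replicate 2 the adjusted p was 0.155 for Dok6, 0.227 for Ccrn4l, 0.397 for Met, 0.174 for Atp6v0d2, 0.347 for Rabgap1l, 0.154 for Trib2, 0.279 for Cd180 and 0.478 for Inhba.

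**Figure D3:**
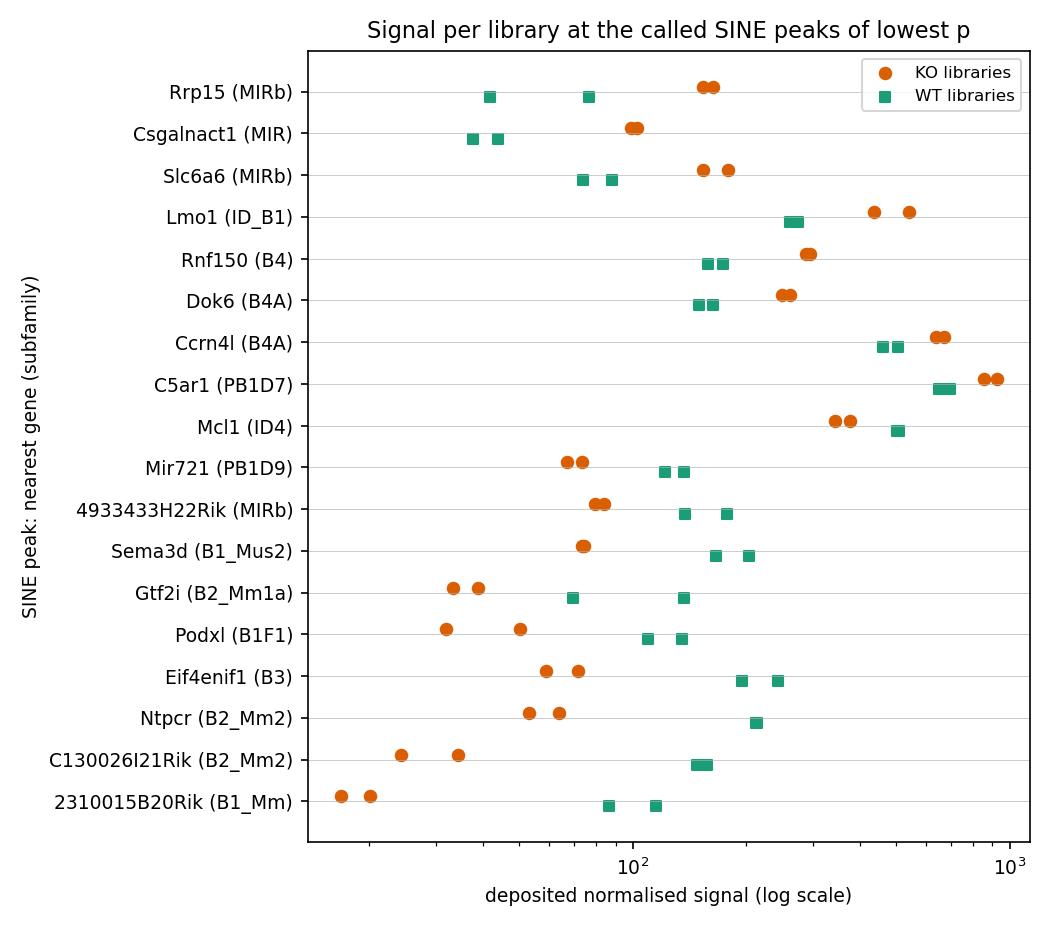
Deposited normalised signal per library (horizontal log axis) at 18 called SINE peaks, 8 gains and 10 losses among those of lowest p, with KO libraries as orange circles above WT libraries as green squares in each row. KO and WT libraries do not overlap in any row, which the choice of these peaks required, and the gap is widest at 2310015B20Rik and C130026I21Rik, both lower in KO.

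Few SINE peaks were assigned to genes of neutrophil function or survival. Ncf1, which encodes the NADPH oxidase subunit p47phox, had 2 SINE peaks, neither of which passed. The PB1D9 peak 2089 bp upstream had 85.7 and 79.0 in KO libraries and 138 and 116 in WT libraries (log2 fold change -0.61, limma adjusted p = 0.0641, but 0.0496 under total scaling and 0.0171 without WT replicate 2), and the groups of the RSINE1 peak overlapped (log2 fold change -0.06).

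At Mcl1, the anti-apoptotic BCL2 family gene on which neutrophil survival depends, the ID4 peak 7635 bp upstream fell. It had 376 and 344 in KO libraries and 508 and 501 in WT libraries (log2 fold change -0.49, SE 0.11, limma adjusted p = 0.00759), and its call was lost without KO replicate 1 (adjusted p = 0.0571) or KO replicate 2 (0.219). No SINE peak was assigned to Bcl2l11, the gene of the pro-apoptotic protein Bim, or to Morrbid under its listed symbol Gm14005. Among myeloid transcription factor genes, the MIR peak assigned to Runx3 had 61.8 and 52.7 in KO libraries and 92.5 and 102 in WT libraries (log2 fold change -0.75, limma adjusted p = 0.0462, and 0.192 and 0.412 without KO replicates 1 and 2). That call was also lost without WT replicate 2 (adjusted p = 0.0648), under median centring (0.0629) and under cyclic loess (0.0969). The SINE peaks assigned to Atf3 (log2 fold change -0.54, limma adjusted p = 0.165, but 0.0372 without WT replicate 1) and Runx1 (-0.46) were not called. Further named losses were those at 4933433H22Rik (log2 fold change -0.93), Mir721 (-0.87), Arap1 (-0.53), and Mir7048 (-0.40), each called with all 4 libraries and lost without KO replicate 1 (limma adjusted p = 0.0629, 0.157, 0.394 and 0.152). Those at Mir721, Arap1 and Mir7048 were also lost without KO replicate 2 (adjusted p = 0.0984, 0.169 and 0.353), and those at Arap1 and Mir7048 under median centring (0.0586 and 0.0533). The strongest MIR peak, 34440 bp from the retinol dehydrogenase gene Dhrs9, had 1047 and 924 in KO libraries and 1041 and 1022 in WT libraries, and the groups overlapped.

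Gains among SINE peaks were more frequent at stronger peaks, as they were over all peaks, while losses ran differently. In the top quartile of signal over all peaks, which held 49 SINE peaks, 9 rose (18.4%) and 3 fell (6.12%), against 15.7% and 2.75% of all peaks there. In the bottom quartile, with 191 SINE peaks, 2 rose (1.05%) and 3 fell (1.57%), against 1.41% and 4.19%. The share of losses over the 4 quartiles, from weak to strong, was 1.57%, 3.57%, 5.41% and 6.12% for SINE peaks and 4.19%, 5.39%, 5.88% and 2.75% for all peaks, and the difference was not tested. Intronic SINE peaks gave 14 gains and 7 losses among 267, and intergenic ones 12 gains and 11 losses among 252. By chromosome, the median log2 fold change of SINE peaks ran from -0.23 on chromosome 17 (24 peaks, 2 losses) to 0.24 on chromosome X (14 peaks, 1 gain). On chromosomes 9, 14 and 16, with 31, 14 and 21 SINE peaks, none was called, where 8.48% of SINE peaks were called in all. Medians of all peaks by chromosome were not set beside these, so a shift of a whole chromosome cannot be told from one of its SINE peaks.

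SINE peaks were then set beside the nearest peak outside SINEs. Such a neighbour lay within 10 kb of 292 SINE peaks, at a median gap of 3649 bp. Across these 292 pairs, which share the 4 libraries, the log2 fold changes had a Pearson correlation of 0.37 and a Spearman correlation of 0.34. Of 12 called losses with a neighbour, 11 had one with a negative log2 fold change (median -0.63) and 6 had one that was itself called lower. Of 15 called gains, 11 had a neighbour with a positive log2 fold change (median 0.15) and 4 had one called higher. Among the 265 uncalled SINE peaks with a neighbour, 28 had a called one, and the median of the neighbours was -0.02. Of all 292 neighbours 38 were called in either direction, where 10.7% of all peaks outside SINEs were called.

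Individual pairs showed both patterns. The peak beside the C130026I21Rik loss, 4062 bp away in a LINE element, fell too (log2 fold change -1.70, limma adjusted p = 0.000279), as did the peak 706 bp from the Sema3d loss (-1.46) and that 2596 bp from the Zfp213 loss (-1.35). The peak 267 bp from the ID4 peak of Mcl1 fell (log2 fold change -0.63, limma adjusted p = 0.0336). The Rrp15 promoter, 2516 bp from the MIRb gain, rose (log2 fold change 0.73, limma adjusted p = 0.000531). The neighbour of the Ntpcr loss, 1956 bp away, was not called, at a log2 fold change of 0.85 (limma adjusted p = 0.0596), and the Eif4enif1 promoter, 2055 bp from the B3 loss, had -0.12 (limma adjusted p = 0.687). No called SINE peak had a neighbour within 10 kb that was called in the opposite direction.

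**Figure D4:**
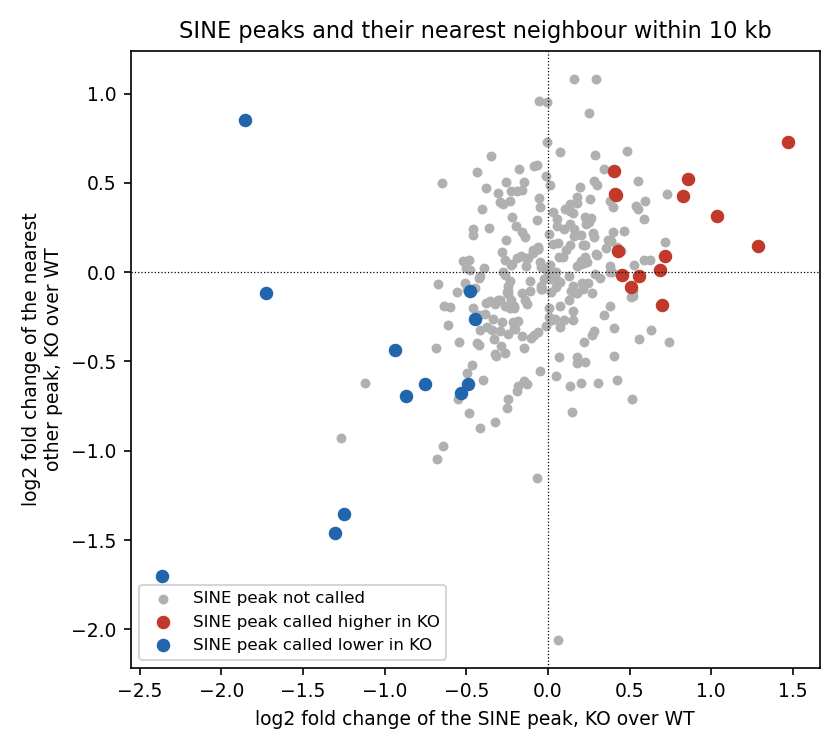
Log2 fold change of KO over WT of the nearest peak outside SINEs (vertical axis) against that of the SINE peak (horizontal axis) for the 292 SINE peaks with such a neighbour within 10 kb, coloured by the call of the SINE peak. Of 12 blue points 11 lie below 0, and the exception with the neighbour above 0 is the Ntpcr peak.

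Genes that transcribe, bind or silence SINEs were read at their promoters, taking the peak nearest the TSS within 1000 bp. Over all 8776 genes with such a peak, 7.68% were called higher and 5.83% lower. Of 15 promoters of RNA polymerase III and its factors, 3 rose and 0 fell. They were Tbp, the TATA-binding protein gene, with 412 and 434 in KO libraries and 308 and 277 in WT libraries (log2 fold change 0.53, limma adjusted p = 0.00759), and the polymerase III subunit genes Polr3k (0.38) and Polr3e (0.28). The median of that list was -0.07, against -0.02 over all promoters. Of 10 promoters of CTCF and cohesin genes, 2 rose and 1 fell (median 0.16). Cohesin subunit genes Stag1 and Rad21 rose (log2 fold changes 0.43 and 0.38), and the cohesin regulator gene Pds5a fell (-0.70, limma adjusted p = 0.0474). None of 20 promoters of repeat silencing genes was called (median 0.02), with Cbx5, a gene of heterochromatin protein 1, closest at a log2 fold change of 0.71 (limma adjusted p = 0.0530). None of the 5 promoters of signal recognition particle and La genes was called, and Srp9 and Srp14, whose proteins bind B1 RNA, had log2 fold changes of 0.07 and -0.31. All 6 of these calls were lost without KO replicate 1, the 3 gains of RNA polymerase III genes also without KO replicate 2, and the Pds5a loss without KO replicate 2, without WT replicate 2 and under median centring. Cyclic loess left 1 gain in the RNA polymerase III list and 1 in the CTCF and cohesin list. None of these 4 lists had a SINE peak assigned to its genes. For the remaining lists, 3 of 21 neutrophil gene promoters rose and 2 fell, 2 of 29 apoptosis gene promoters rose and 1 fell, 3 of 23 myeloid transcription factor promoters rose and 3 fell, and 0 of 18 interferon gene promoters were called. Without KO replicate 1, gains and losses were 2 and 0 for the neutrophil list, 0 and 0 for apoptosis and 1 and 1 for the transcription factors, and without KO replicate 2 they were 1 and 1, 0 and 0, and 1 and 1. Without WT replicate 1 they were 5 and 2, 5 and 2, and 2 and 5, and without WT replicate 2 they were 2 and 3, 6 and 2, and 6 and 6, with 1 loss in the interferon list. The repeat silencing list had 2 gains and 2 losses without WT replicate 1 and 3 and 1 without WT replicate 2.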

How the data were processed

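ATAC-seq libraries, 2 KO and 2 WT, took their group and number from the sample titles. The submitters' processing notes name the mm9 build, MACS2 2.1.0, BWA, HOMER, DiffBind, Trimmomatic 0.32, bcl2fastq 2.16.0 and R 3.1.1, with no role or order. The sources used here do not give peak calling settings, duplicate and mapping filters or any shift for Tn5, and multi-copy sequence is sensitive to such filters. Per the file headers, the deposited table holds a normalised signal per library for each consensus peak and an annotation by TSS, gene part and repeat. Each library's values moved in steps of a fixed size (tolerance 0.001), which were not taken as reads, so the depth is unknown and no count model was used. The listed width exceeds end minus start by 2, and starts are printed as deposited. Gene IDs of 518 of 519 SINE peaks matched a RefSeq gene table (GRCm38.p6), which served only for this match.

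KO was compared with WT by limma 3.58.1 (R 4.3.3, empirical Bayes with a mean-variance trend, two-sided) on log2(signal + 1), fitted over all peaks with no covariate beside genotype. The filter, a mean signal above 1, removed 0 peaks. The pseudocount shrinks fold changes of weak peaks. The fit was also run on simulated libraries, drawn as counts of steps with a fixed dispersion. The data were not shown to meet that setting, so the run does not bear on whether the calls hold. Descriptions of the class carry no test. The members, gene lists (RNA polymerase III, signal recognition particle and La, repeat silencing, CTCF and cohesin, neutrophil, apoptosis, interferon, myeloid transcription factors, and cell type markers) and tests were chosen with earlier results of these data known. Named peaks were, per direction, the 10 of lowest p with separated groups and the 5 of largest change, per family up to 3 of lowest p in each direction and the strongest peak, called peaks within 1000 bp of a TSS, and up to 3 per gene list. A few of these peaks are not reported here. The promoter rule found no peak centred in its window, so peaks spanning the TSS were used, a choice made after seeing the data. Figures were drawn with matplotlib 3.10.9.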

Additional observations from a re-analysis of the deposited data

How the results depend on the processing

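Calls of SINE peaks were recomputed under 12 other settings of the fit. The counts stayed within 1.5 times of 26 higher and 18 lower under pseudocounts of 0.5 and 5, a minimum mean signal of 50, median centring (35 and 12), total scaling (20 and 21), cyclic loess (21 and 15) and, an alternative added after seeing the data, without SINE peaks under 200 bp (25 and 14). In limma without a mean-variance trend 0 were higher and 3 lower (57 and 54 at an unadjusted p under 0.05, and 62 and 45 with the trend). The 3 were the losses at Ntpcr, C130026I21Rik and 2310015B20Rik, called under all 12 of these settings. Leaving out 1 library gave 3 to 59 higher and 8 to 34 lower, and of the 44 calls 14 remained without KO replicate 1, 11 without KO replicate 2, 44 without WT replicate 1 and 38 without WT replicate 2. With 1 library left in a genotype, the spread comes from the other pair and is assumed alike, and the cause of the changes in number was not tested. The replicate number as a block gave 30 higher and 21 lower and all 44 calls remained. The deviations of same-numbered libraries had a correlation of -0.04 over all peaks, so the numbers are not taken as pairs. The median log2 fold change of SINE peaks was 0.0755 under median centring, -0.046 under total scaling and 0.0523 under cyclic loess, where that of all peaks was 0.0649, -0.0564 and -0.0023. It was 0.02 to 0.03 without 1 library. Over peaks more than 1000 bp from a TSS, the SINE share of the signal was 3.04% in KO and 3.03% in WT libraries, since fewer peaks enter the total. By family, calls under these alternatives ran from 0 to 17 higher and 1 to 10 lower (Alu), 0 to 7 and 2 to 10 (B2), 0 to 16 and 0 to 6 (B4), 0 to 2 and 0 to 1 (ID) and 0 to 17 and 0 to 8 (MIR). Promoters of RNA polymerase III genes ran from 0 to 4 higher and 0 to 1 lower, and those of CTCF and cohesin genes from 0 to 3 and 0 to 1. Of 36 named peaks, only 2 uncalled ones turned sign, namely Dhrs9 (-0.158 to 0.0226 when 1 library was left out, above 0 without KO replicate 2) and the RSINE1 peak of Ncf1 (0.00248 under median centring, and -0.241 to 0.113 when 1 library was left out, above 0 without KO replicate 1 or WT replicate 2). The read depth behind the values is unknown.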

Other observations

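The genes with the most SINE peaks were Cxcr4, Elovl6 and Irf2bp2, with 3 each, chosen after their values were seen. None of these 9 peaks was called. Cxcr4 encodes the chemokine receptor that retains neutrophils in bone marrow, and its peaks, in ID_B1 and B4 elements, had log2 fold changes of -0.13, -0.23 and 0.02, with overlapping groups at each. Elovl6 encodes a fatty acid elongase, and at its 3 peaks, in B3A, B3 and ID_B1 elements, the KO libraries lay above both WT libraries (log2 fold changes 0.55, 0.34 and 0.26, limma adjusted p = 0.323, 0.372 and 0.615). At Irf2bp2, a gene of a transcription corepressor, the values were 0.51, -0.06 and -0.08.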
